A study of Homo sapiens with 8 samples.

Results

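Cells of SUM159, an established mesenchymal triple-negative breast cancer cell line, that had been passaged in 0.6 nM paclitaxel were compared with cells passaged in the DMSO vehicle of the same experiment. The members were chosen by library of origin alone. The paclitaxel library held 752 of the 5738 deposited cells and the DMSO library 459. All cells carried a lentiviral DNA barcode library and were profiled by droplet single-cell RNA sequencing, in which each captured molecule is counted once through its unique molecular identifier (UMI). Cultures were kept under selection for up to 18 passages, and the replicate cultures (3 each for paclitaxel and DMSO) were mixed in equal cell numbers before encapsulation, so that they cannot be told apart within a library. Paclitaxel alone and DMSO were therefore 1 library each, no test between them is given, and the treatment and its library cannot be told apart. The remaining 6 libraries were cells sampled before treatment (602 cells, called pre-treatment), cells passaged in 100 nM of the BET bromodomain inhibitor JQ1 (JQ1-A and JQ1-B, from separate selections), in 160 nM of the CDK4/6 inhibitor palbociclib, in JQ1 with paclitaxel and in JQ1 with palbociclib. Paclitaxel and JQ1 had the same doses in the combinations.

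Paclitaxel binds the beta-tubulin subunit inside the microtubule wall and keeps microtubules from disassembling. In dividing cells this holds the spindle checkpoint on, so that cells arrest in mitosis or divide with badly segregated chromosomes. Textbook routes to survival under the drug are changes in the tubulin isotypes, export by the transporter ABCB1, a weakened checkpoint and changes in the BCL2 family of apoptosis regulators. SUM159 cells also secrete cytokines such as interleukin 8 and interleukin 6, whose genes are targets of the transcription factor NF-kB.

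The paclitaxel library had 18176477 UMIs, with a median of 22503 UMIs and 4147.5 genes per cell, and the DMSO library had 10621159 UMIs, with medians of 20664 and 4014. The median mitochondrial share was 3.72% and 3.81%. These libraries shared 0 cell barcodes, and no pair of the 8 shared more than 2. The mesenchymal markers VIM, CD44, AXL, ZEB1 and S100A4 were detected in both libraries, ESR1 and PGR had 1 UMI each in paclitaxel and 0 in DMSO, and EPCAM had 9 and 6 UMIs. The blood marker PTPRC had 3 and 5 UMIs, while CD68, at 174 and 129 UMIs, was present at a low level in both. ERBB2 had 102 and 78 UMIs.

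The level of a gene in a library is its UMI sum over all cells, scaled to 1000000 UMIs (CPM). Ratios of the CPM of both libraries are given with exact 95% intervals, which cover the error of counting molecules and not the variation between cultures or libraries. Of 6708 genes that averaged 10 CPM or more over both libraries, 502 were at least 1.5-fold higher in paclitaxel than in DMSO (7.48%) and 471 at least 1.5-fold lower (7.02%). At least 2-fold, 68 were higher (1.01%) and 121 lower (1.8%). The median log2 ratio was 0.03. Scaling by TMM factors gave 634 higher and 376 lower genes, so that the higher genes made up 62.8% of those past 1.5-fold against 51.6% with the library totals. Centring on the median gene gave 431 and 514 (45.6%), and a mean of at least 5 CPM 637 and 770 (45.3%), so the balance between higher and lower genes depends on these choices.

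Other pairs of libraries give a scale for these counts. JQ1-A and JQ1-B had the same drug and dose, while DMSO and pre-treatment were both without drug but differed in vehicle and passaging. DMSO against pre-treatment had 224 of 6740 genes past 1.5-fold in either direction (3.32%), and JQ1-A against JQ1-B had 76 of 6359 (1.2%), whereas paclitaxel against DMSO had 973 (14.5%). Against pre-treatment cells, paclitaxel had 602 genes past 1.5-fold (9.05%), with 4.32% of the 6649 genes higher and 4.74% lower. Of the 502 higher genes, 171 (34.1%) were also at least 1.5-fold higher than in pre-treatment, and of the 471 lower genes 231 (49.0%) were at least 1.5-fold lower. In 450 of the 502 genes the paclitaxel library had the highest level of all 8 libraries, and in 292 of the 471 the lowest. The choice of these genes by their paclitaxel level favours such ranks, and over all 6708 genes paclitaxel was the highest library in 36.9% and the lowest in 13.4%. The 2 comparisons share the paclitaxel library.

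**Figure D1:**
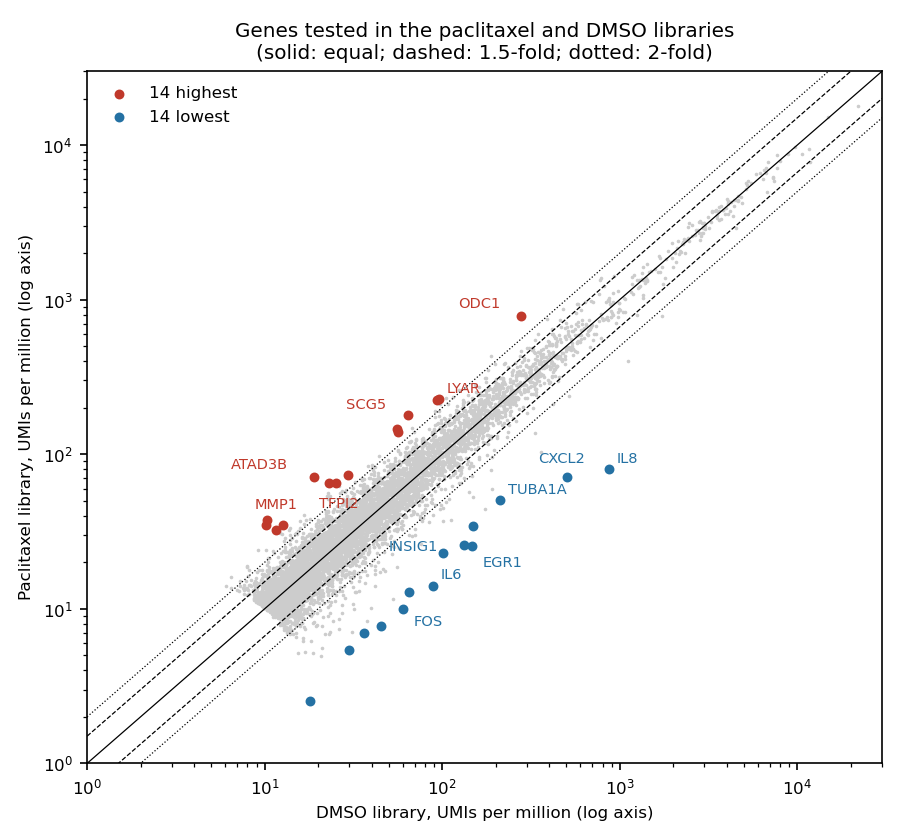
Level of each of the 6708 genes in the DMSO library (x) and in the paclitaxel library (y), in CPM on log axes; lines mark equal levels, 1.5-fold and 2-fold. The 14 lowest genes, led by IL8, lie further from the line of equal levels than the 14 highest, led by ATAD3B.

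The lowest genes of the paclitaxel library were dominated by secreted cytokines and immediate early transcription factors. The 14 genes were IL8, CXCL2, IL6, EGR1, FOS, NR4A1, TNFAIP3, INSIG1, CXCL3, FOSB, NFKBIZ, JUNB, PNRC1 and TUBA1A, ranked by the interval bound nearest to a ratio of 1. All 14 were at least 1.5-fold lower than in pre-treatment as well, and in 13 the paclitaxel library was the lowest of the 8.

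IL8 (now CXCL8; chromosome 4, 74606236 to 74609433, GRCh37) encodes the neutrophil chemokine interleukin 8. It was at 862 CPM in pre-treatment, 867 CPM in DMSO and 80.1 CPM in paclitaxel, which made it 10.8-fold lower in paclitaxel than in DMSO. The pre-treatment and DMSO levels were near equal, and the paclitaxel level lay below those of all other libraries. CXCL2 (chromosome 4, 74962757 to 74964913), a chemokine of the same gene cluster, was at 442, 504 and 70.7 CPM in the same order, 7.13-fold lower than in DMSO. CXCL3, also of this cluster, was at 96.0, 65.2 and 12.8 CPM. IL6 (chromosome 7, 22765503 to 22771621), which encodes interleukin 6, was at 90.5, 88.5 and 14.1 CPM, 6.26-fold lower. CXCL1, CXCL2 and CXCL3 are close paralogs, so reads may be split between them. CXCL1, below the filter, showed 14 CPM in DMSO and 2.37 CPM in paclitaxel.

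The NF-kB list of 41 genes had 19 measured members, of which 15 were at least 1.5-fold lower (78.9%, against 7.02% of all genes) and 0 higher, with a median log2 ratio of -1.21 against 0.03 for all genes. All 19 lay below 0. Besides cytokines, some regulators of the pathway were lower. TNFAIP3, the ubiquitin-editing enzyme A20 that switches the pathway off, was at 45.5 CPM in DMSO and 7.70 in paclitaxel. NFKBIZ, a nuclear co-regulator of the pathway, was at 36.2 and 6.99 CPM, and NFKBIA, the cytoplasmic inhibitor IκBα, at 334 and 137 CPM. The members nearest to equal levels were IL32 (132 and 119 CPM, log2 ratio -0.15), NFKBIE (-0.26) and NFKB1 (-0.40). Against pre-treatment, 17 of the 19 were at least 1.5-fold lower and the median was -1.37. The summed level of the list was 2737 CPM in pre-treatment, 2622 in DMSO, 730.1 in paclitaxel and 3261 in palbociclib, and between 674 and 1049 in the JQ1 libraries. The paclitaxel sum thus lay in the range of the JQ1 libraries. In 9 of the 19 genes paclitaxel was the lowest of all. It was so in 13.4% of all genes tested and in 62.0% of the 471 genes at least 1.5-fold lower than in DMSO, to which most of this list belongs.

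Upstream sequences are shown for CXCL8 and CXCL2, because the list was defined by NF-kB, and for EGR1, an immediate early gene, as examples of lower genes. RefSeq sequences (GRCh38.p14) of the 250 bases before the start site were searched on both strands for GGNNTTTCC (NF-kB), TGANTCA (AP-1), CACGTG (an E-box) and the CArG box bound by serum response factor. Capitals mark matches, which may overlap.
CXCL8 (IL8), chr4:73740319-73740568, plus strand, with the AP-1 letters from base -137 to -131 and the NF-kB letters from -91 to -83: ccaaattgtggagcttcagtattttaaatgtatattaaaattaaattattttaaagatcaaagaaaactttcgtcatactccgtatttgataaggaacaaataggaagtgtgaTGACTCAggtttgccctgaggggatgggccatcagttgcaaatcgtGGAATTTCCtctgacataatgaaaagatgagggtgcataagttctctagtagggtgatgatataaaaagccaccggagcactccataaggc
CXCL2, chr4:74099196-74099445, minus strand, with NF-kB letters from -77 to -69 and from -53 to -45: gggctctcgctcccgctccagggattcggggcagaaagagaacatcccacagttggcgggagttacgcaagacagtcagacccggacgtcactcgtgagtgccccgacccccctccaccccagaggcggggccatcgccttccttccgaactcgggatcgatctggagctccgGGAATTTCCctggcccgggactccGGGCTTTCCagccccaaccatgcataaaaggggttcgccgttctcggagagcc
EGR1, chr5:138465229-138465478, plus strand, with CArG boxes from -105 to -96 and from -83 to -74: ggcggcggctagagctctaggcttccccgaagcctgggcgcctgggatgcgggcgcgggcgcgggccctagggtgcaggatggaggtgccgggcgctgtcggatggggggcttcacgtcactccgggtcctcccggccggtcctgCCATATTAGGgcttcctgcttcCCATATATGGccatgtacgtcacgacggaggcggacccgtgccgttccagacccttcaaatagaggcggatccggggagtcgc

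Of the 19 NF-kB genes, 14 had a window, and 12 of these held GGNNTTTCC, 85.7%, against 8.39% of the 5593 tested genes with a window and 6.70% of all 27303 genes. The list was drawn up from known targets, so this share describes its make-up. TGANTCA was in 1 of the 14. Of the 21 immediate early genes described next, 17 had a window, of which 0 held GGNNTTTCC and 1, EGR1, a CArG box (1.61% of the 5593 genes). A match is a run of letters, and neither binding nor its absence can be read from it.

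Immediate early genes are transcribed within minutes of growth factor or stress signals and encode mostly short-lived transcription factors and feedback regulators. Of 21 measured members of a list of 24, 15 were at least 1.5-fold lower in paclitaxel (71.4%, against 7.02% of all genes) and 1 was higher, with a median log2 ratio of -1.37. EGR1 (chromosome 5, 137801168 to 137804992, GRCh37), a zinc finger factor, was at 105 CPM in pre-treatment, 148 in DMSO and 25.5 in paclitaxel, 5.79-fold lower than in DMSO. FOS (chromosome 14, 75745529 to 75748933) was at 26.4, 60.4 and 9.90 CPM and FOSB at 12.9, 29.8 and 5.45 CPM. For both FOS family genes the DMSO level was more than 2-fold above the pre-treatment level, so that their log2 ratios were -1.41 and -1.24 against pre-treatment and -2.61 and -2.45 against DMSO. NR4A1, an orphan nuclear receptor, was at 18.0 and 2.53 CPM in DMSO and paclitaxel, and JUNB, a partner of FOS in the AP-1 dimer, at 149 and 34.1 CPM.

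FOSL1, the FOS family member FRA-1, was the only member at least 1.5-fold higher, at 54.4 CPM in DMSO and 90.7 CPM in paclitaxel (log2 ratio 0.74, and 0.36 against pre-treatment). DUSP2 also lay above 0, at 9.04 and 13.1 CPM (log2 ratio 0.53, and -0.003 against pre-treatment). MYC was at 356 and 281 CPM, a log2 ratio of -0.34, and 0.09 against pre-treatment. The list as a whole had a median of -0.93 against pre-treatment, with 13 members at least 1.5-fold lower. DMSO itself lay above pre-treatment by a median of 0.43. The summed level of these genes was 1367 CPM in paclitaxel and between 2288 and 3562 CPM in the other 7 libraries. Paclitaxel was the lowest library for 14 of the 21, against 13.4% of all genes tested and 62.0% of the 471 genes at least 1.5-fold lower than in DMSO.

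**Figure D2:**
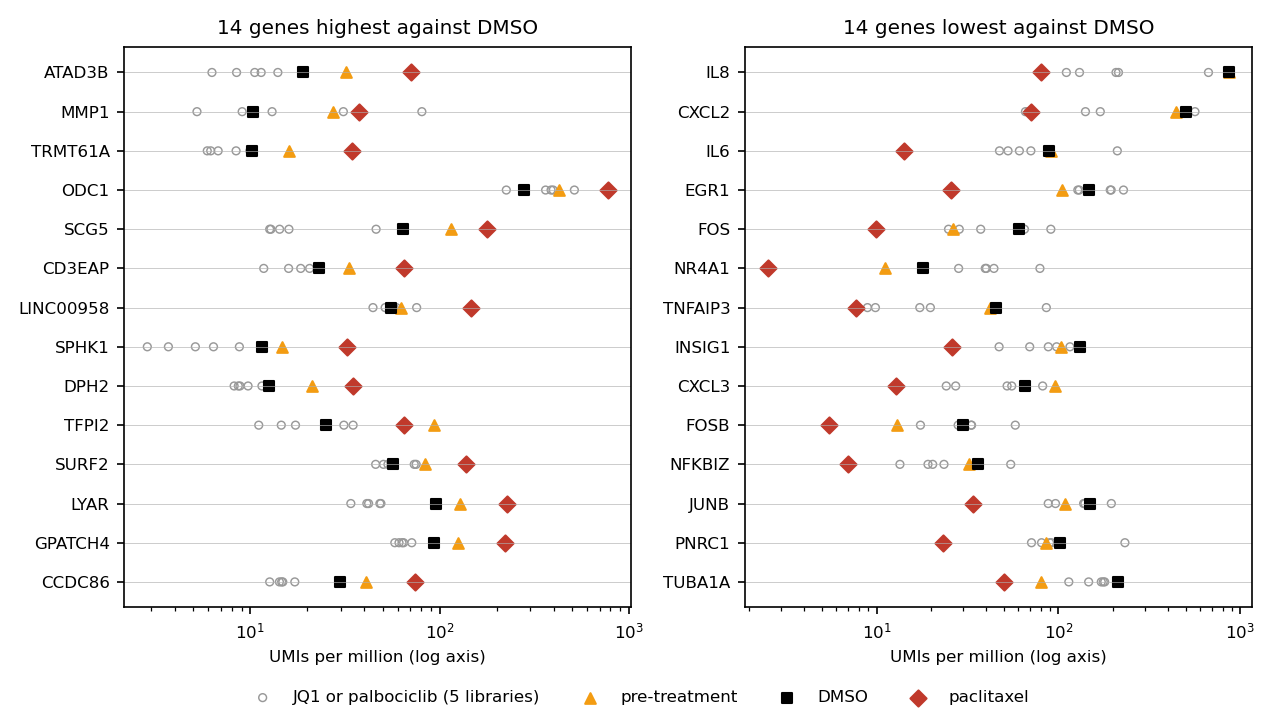
Level in every library, in CPM on a log axis, of the 14 genes highest (left) and lowest (right) in paclitaxel against DMSO. Paclitaxel lies beyond all other libraries in 12 of the 14 highest and 13 of the 14 lowest genes, and IL8, CXCL2 and IL6 have near equal levels in pre-treatment and DMSO.

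Among the genes higher in paclitaxel, factors of the nucleolus that assemble ribosomes recurred. The 14 highest were ATAD3B, MMP1, TRMT61A, ODC1, SCG5, CD3EAP, LINC00958, SPHK1, DPH2, TFPI2, SURF2, LYAR, GPATCH4 and CCDC86. In 12 of them the paclitaxel library was the highest of all 8, and 12 were at least 1.5-fold higher than in pre-treatment. The exceptions to both counts were MMP1, highest in JQ1+palbociclib, and TFPI2, highest in pre-treatment.

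ODC1 (chromosome 2, 10580094 to 10588453), the rate-limiting enzyme of polyamine synthesis, was at 779 CPM in paclitaxel against 278 in DMSO and 429 in pre-treatment. Its ratio to DMSO was 2.80 (2.69 to 2.92). CD3EAP (now POLR1G; chromosome 19, 45909902 to 45913995), a subunit of RNA polymerase I, which transcribes ribosomal RNA, was at 65.1, 23.1 and 33.1 CPM in the same order. LYAR, a nucleolar factor of pre-ribosomal RNA processing (chromosome 4, 4269428 to 4291881), was at 228, 95.6 and 128 CPM. The nucleolar genes GPATCH4 (223, 93.5 and 125 CPM) and CCDC86 (73.9, 29.7 and 40.8 CPM) had the same order. In these genes the paclitaxel level was more than 2-fold that of DMSO, and pre-treatment lay between them.

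ATAD3B (chromosome 1, 1407145 to 1433228), a mitochondrial ATPase, had the largest ratio, 3.73 (3.21 to 4.34), from 19.0 CPM in DMSO to 70.9 CPM in paclitaxel, with 32.2 CPM in pre-treatment. It has close paralogs beside it on chromosome 1, so the share of reads that belong to it is uncertain. TRMT61A, the catalytic subunit of a tRNA methyltransferase, was at 34.7 CPM in paclitaxel and 10.2 CPM in DMSO. SCG5, a secretory granule chaperone, was at 179 and 64.3 CPM. SPHK1, sphingosine kinase 1, was at 32.5 and 11.6 CPM. MMP1, interstitial collagenase, was at 37.6 and 10.4 CPM, but at 27.2 CPM in pre-treatment, a log2 ratio of only 0.47. TFPI2, a serine protease inhibitor, was at 93.7 CPM in pre-treatment, 25.1 in DMSO and 65.1 in paclitaxel, and its paclitaxel level so lay between the other two.

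A list of 88 ribosome biogenesis genes was written after nucleolar genes had been seen in this ranking, so its count describes them and is no independent result. Of 78 measured members, 46 were at least 1.5-fold higher in paclitaxel (59.0%, against 7.48% of all genes) and 0 lower, with a median log2 ratio of 0.67. Without the 4 that are among the 14 highest, the count was 42 of 74 and the median 0.67. NOP56, a core protein of small nucleolar ribonucleoproteins, was at 125 CPM in DMSO and 259 in paclitaxel, and DKC1, the pseudouridine synthase dyskerin, at 116 and 234 CPM. NCL, nucleolin, was at 346 and 603 CPM. Against pre-treatment, 30 of 78 were at least 1.5-fold higher and the median was 0.48, and DMSO lay 0.17 below pre-treatment. In 75 of the 78 genes paclitaxel was the highest library. It was so in 36.9% of all genes tested and in 89.6% of the 502 genes at least 1.5-fold higher than in DMSO. The summed level was 11025 CPM in paclitaxel against 8724 in pre-treatment, 7901 in DMSO and 5023 to 5877 in the others. The 72 ribosomal protein genes of the cytosol, also listed afterwards, showed none past 1.5-fold and a median of 0.01.

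The upstream windows of 2 of the highest genes, each with an E-box near the start site, are shown as examples of this group.
POLR1G (CD3EAP), chr19:45406394-45406643, plus strand, with the E-box from -12 to -7: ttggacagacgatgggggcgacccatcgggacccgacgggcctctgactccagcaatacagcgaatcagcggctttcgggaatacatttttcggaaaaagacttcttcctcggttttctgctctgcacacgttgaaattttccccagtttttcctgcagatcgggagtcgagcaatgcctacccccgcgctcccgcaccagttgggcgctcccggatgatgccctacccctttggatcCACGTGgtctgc
CCDC86, chr11:60841863-60842112, plus strand, with the E-box from -25 to -20: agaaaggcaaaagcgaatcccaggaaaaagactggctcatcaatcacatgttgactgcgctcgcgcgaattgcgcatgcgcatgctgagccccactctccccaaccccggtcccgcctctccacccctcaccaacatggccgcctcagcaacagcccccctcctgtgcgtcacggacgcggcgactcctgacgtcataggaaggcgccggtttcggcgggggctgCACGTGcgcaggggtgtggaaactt
CACGTG was in 12 of 69 ribosome biogenesis genes with a window, 17.4%, in 12% of the tested genes and in 7.73% of all genes. Both genes were picked for display after the search.

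Of the other lists, those of the mitotic machinery had medians slightly above that of all genes. Among 28 spindle checkpoint and kinetochore genes, 4 were at least 1.5-fold higher and 0 lower, with a median of 0.18. UBE2C, an E2 enzyme of the anaphase-promoting complex, was at 293 CPM in paclitaxel and 175 in DMSO, its activator CDC20 at 262 and 174, and the kinetochore protein ZWINT at 96.5 and 62.2. The fourth, MAD1L1, a checkpoint protein, was at 50.9 and 28.4 CPM but was not above pre-treatment (log2 ratio -0.14). Among 16 mitotic kinases and cyclins, 2 were past 1.5-fold, AURKA (111 and 70.2 CPM), an Aurora kinase of the centrosome, and PKMYT1 (35.7 and 23.5 CPM), an inhibitory kinase of CDK1. CCNB1 (246 and 240 CPM) and PLK1 (113 and 78.4 CPM) were not. Seurat's G2/M list had 4 of 53 members higher and 0 lower, with a median of 0.22, and its S-phase list 5 of 34 and 0, with a median of 0.23. The shares of higher genes in these 4 lists were 14.3%, 12.5%, 7.55% and 14.7%, against the 7.48% of all genes. The 12 mitotic kinesins had 1 gene higher, KIF18B, and a median of 0.20, and the 28 DNA replication genes had 3 higher, among them MCM10 (20.1 and 10.5 CPM), with a median of 0.16. Summed over the list, both Seurat lists were at their highest in paclitaxel.

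Of 8 measured genes of the cyclin D, cyclin E, CDK and RB list, 3 were at least 1.5-fold higher (37.5%, against 7.48% of all genes) and 0 lower. CCND1, cyclin D1, was at 349 CPM in paclitaxel, 181 CPM in DMSO (log2 ratio 0.95) and 0.85 above pre-treatment on the log2 scale. CCNE1, cyclin E1, was at 16 and 6.50 CPM and CDK6 at 28.6 and 16.8 CPM, while CDK4 (274 and 184 CPM) missed 1.5-fold. Of 10 CDK inhibitor and growth arrest genes, 4 were at least 1.5-fold lower (40%, against 7.02%) and 0 higher, with a median of -0.49. CDKN1A, the CDK inhibitor p21, was at 16.2 CPM in paclitaxel and 31.3 in DMSO, and GADD45A, a stress-response gene, at 139 and 234 CPM. The CDK inhibitors CDKN2D (41.2 and 56.6 CPM) and CDKN2C (36.8 and 34.8 CPM) were not past 1.5-fold. RB1 had a log2 ratio of 0.01 at 8.42 and 8.38 CPM, below the filter.

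The tubulins, which hold the binding site of the drug, were at near equal levels apart from TUBA1A. Of 10 measured isotypes, 0 were higher and 1 lower (10%, against 7.02% of all genes), with a median log2 ratio of 0.01. TUBA1A, an alpha-tubulin (chromosome 12, 49578469 to 49582863), was at 50.2 CPM in paclitaxel and 212 CPM in DMSO, 4.21-fold lower, but at 80.1 CPM in pre-treatment, a log2 ratio of -0.67. DMSO was the highest of all 8 libraries for this gene. The alpha-tubulin TUBA1B was at 1827 CPM in paclitaxel and 1829 in DMSO, and the beta-tubulins TUBB, TUBB2A, TUBB4B and TUBB6 had log2 ratios of -0.39, -0.28, 0.22 and 0.16. TUBB2B had 2 and 11 UMIs, and TUBB3 is not among the genes of the table. Alpha-tubulin genes are near-identical in their coding parts, so reads may be assigned to the wrong copy. Of 20 microtubule regulators, HDAC6, a tubulin deacetylase (6.88 and 13.8 CPM), and MAP1LC3B were lower and 0 were higher. This share of lower genes, 10%, was near that of all genes. STMN1, which destabilises microtubules, was at 321 and 433 CPM.

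Of 18 transporters and enzymes that handle paclitaxel, 14 were in the table and only the exporter ABCC3 passed the filter, at 17.6 CPM in paclitaxel and 47.4 CPM in DMSO. ABCB1 had 13 UMIs in paclitaxel and 4 in DMSO, a ratio of 1.90 with an interval from 0.587 to 7.995, so that no difference between this pair was detectable at this depth. Its level was 0 CPM in pre-treatment, 0.377 in DMSO and 0.715 in paclitaxel, and 0.309 in JQ1-A and 1.88 in JQ1+paclitaxel. Both libraries with paclitaxel thus had higher ABCB1 levels than any other library, all far below the filter, and this was not tested. ABCC1 had 166 and 58 UMIs (ratio 1.67, 1.23 to 2.296) and ABCG2 157 and 93 UMIs (0.986, 0.759 to 1.29). In the BCL2 family and apoptosis inhibitors, 3 of 13 genes were lower (23.1%, against 7.02% of all genes) and 0 higher. BBC3, which encodes the death-promoting protein PUMA, was at 5.61 CPM in paclitaxel and 21.1 in DMSO (log2 ratio -1.91, and -1.66 against pre-treatment), BNIP3L was at 36.3 and 84.3 CPM, and BIRC3, a ubiquitin ligase that is also an NF-kB target, at 8.20 and 18.9 CPM. The anti-apoptotic genes BCL2L1 and MCL1 had log2 ratios of 0.12 and -0.42.

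Of 24 measured cholesterol and fatty acid synthesis genes, 11 were at least 1.5-fold lower (45.8%, against 7.02% of all genes) and 0 higher, and the median was -0.49 against DMSO and -0.53 against pre-treatment. INSIG1 (chromosome 7, 155089486 to 155101945), which retains the SREBP complex in the endoplasmic reticulum and is itself an SREBP target, was at 104 CPM in pre-treatment, 132 in DMSO and 26 in paclitaxel. SCD, the desaturase that makes monounsaturated fatty acids, was at 44 CPM in paclitaxel and 174 in DMSO, SREBF1 at 17.2 and 44.5, and FASN, fatty acid synthase, at 51.3 and 109. HMGCS1 and SQLE, of the sterol pathway, missed 1.5-fold with log2 ratios of -0.28 and -0.14, and ACLY, ELOVL6 and NSDHL lay at or just above equal levels (0.02, 0.04 and 0.08).

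Among NRF2 targets, 7 of 21 were at least 1.5-fold lower (33.3%, against 7.02% of all genes) and 0 higher, with a median of -0.31. These included the aldo-keto reductases AKR1C2 (10.1 CPM in paclitaxel and 39.9 in DMSO), AKR1C3 (37.7 and 112) and AKR1C1 (18.1 and 46.2), close paralogs whose reads may be mixed, and PGD, an enzyme of the pentose phosphate pathway (48.8 and 86.6). HMOX1 and TXN were near equal. Of 15 interferon-stimulated genes, 6 were lower (40%) and 0 higher, with a median of -0.41 against DMSO and -0.17 against pre-treatment. Among 18 YAP and TAZ targets, 4 were lower (22.2%), led by CYR61 (104 and 360 CPM) and CTGF (45.0 and 102 CPM), and 1 was higher, FJX1. In the heat shock list of 14 genes, 4 chaperones were higher (28.6%, against 7.48% of all genes), led by HSPA8 (1334 CPM in paclitaxel and 775 in DMSO), and the small heat shock gene HSPB1 was lower (238 and 518 CPM). The 72 nuclear genes of oxidative phosphorylation had 0 members past 1.5-fold and a median of -0.12, the 14 MHC class I genes 0 and -0.11, and the 12 mitochondrially encoded genes 0 and -0.03.

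The remaining lists are given by their members past 1.5-fold, to be read against 7.48% of all genes higher and 7.02% lower. Of 13 EGFR ligand and MAPK feedback genes 4 were lower (30.8%) and 1 higher, among them IER3 (403 CPM in paclitaxel and 1114 in DMSO), which is also an immediate early gene, and the ERK phosphatase DUSP5 (17.7 and 42.1). Of 31 ATF4 and unfolded protein genes 3 were higher, led by the amino acid transporter SLC7A5 (58.2 and 27.3 CPM), and 2 lower. Of 29 hypoxia and glycolysis genes 3 were lower and ANGPTL4 was higher (31.1 and 12.2 CPM). Among 21 collagen, laminin and integrin genes 3 were lower, led by COL1A1 (37.9 and 75.8 CPM), and 0 higher. The 14 matrix proteases and inhibitors had 2 higher (14.3%) and 4 lower members (28.6%), and the 12 TGF-beta targets 1 and 1. Of 12 epithelial and mesenchymal genes 2 were higher, KRT7, a keratin (1419 and 929 CPM), and CDH11, and 0 lower. Of 10 cancer testis antigens 5 were lower (50%) and 0 higher, with a median of -0.50, among them the near-identical copies SPANXC and SPANXD, between which reads may be mixed. The IGF and IGF binding list, which also holds IGF2BP2 and IGF2BP3, had 2 of 5 measured members higher (40%), IGFBP4 and IGF2BP3. The 15 histone genes had 1 lower member, H2AFJ, the 8 high mobility group genes 1 higher, HMGA1, and the 8 S100 genes 1 higher, S100A2, which was lower than in pre-treatment (log2 ratio -0.34). Some genes stand in more than 1 list.

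**Figure D3:**
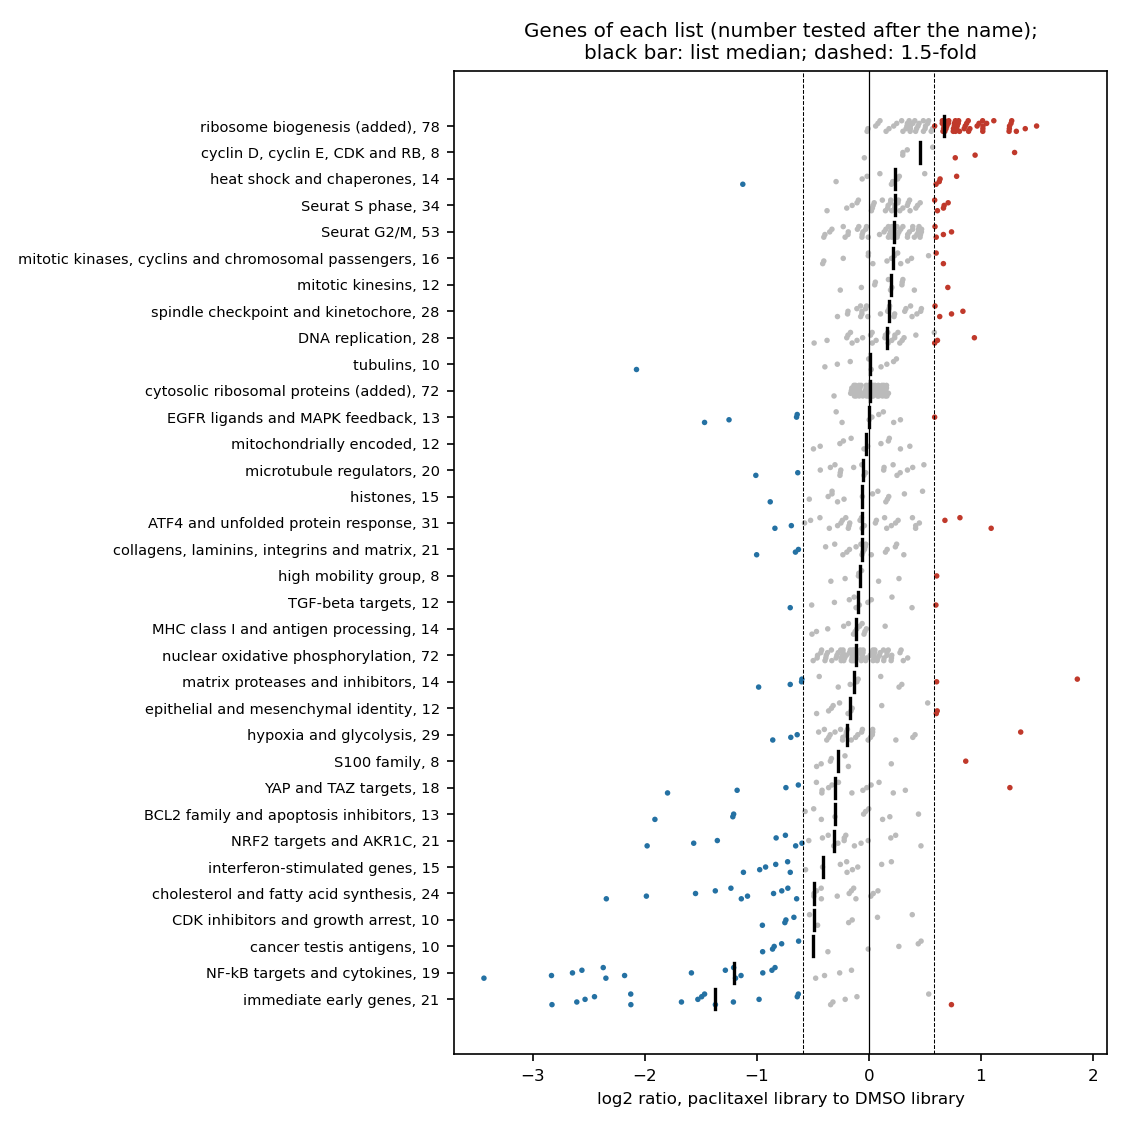
Log2 ratio of paclitaxel to DMSO for every measured gene (points) of each list with at least 8 such genes, with the list median (bar) and 1.5-fold limits (dashed). Immediate early and NF-kB genes have the lowest medians, -1.37 and -1.21, and ribosome biogenesis, a list written after the ranking was seen, has the highest, 0.67.

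The levels per cell were examined to see whether few or most cells carried these differences. Each cell passing the study's filter was thinned to 10000 UMIs, which kept 732 paclitaxel and 445 DMSO cells and left out 8 and 7 shallower ones. IL8 had a median of 7 UMIs per DMSO cell and of 0 per paclitaxel cell, and was detected in 85.4% of DMSO cells (81.8 to 88.5) and 22.8% of paclitaxel cells (19.8 to 26). A few paclitaxel cells kept high counts, up to 52 UMIs. CXCL2 was detected in 83.6% and 32.4% of cells and EGR1 in 66.7% and 19.7%. ODC1 had a median of 2 UMIs per DMSO cell and of 7 per paclitaxel cell, and was detected in 88.8% and 100% of cells. LYAR had medians of 1 and 2 and was detected in 53% and 82.9%. CCND1 had medians of 2 and 3. For IL8, CXCL2, EGR1, ODC1, LYAR and CCND1 the difference was thus present in the median cell. MMP1 had a median of 0 in both and was detected in 13% of paclitaxel and 5.17% of DMSO cells, with up to 29 UMIs in a cell. No cell type that lacks these genes was present, so the share that free RNA in the droplets gives could not be measured.

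**Figure D4:**
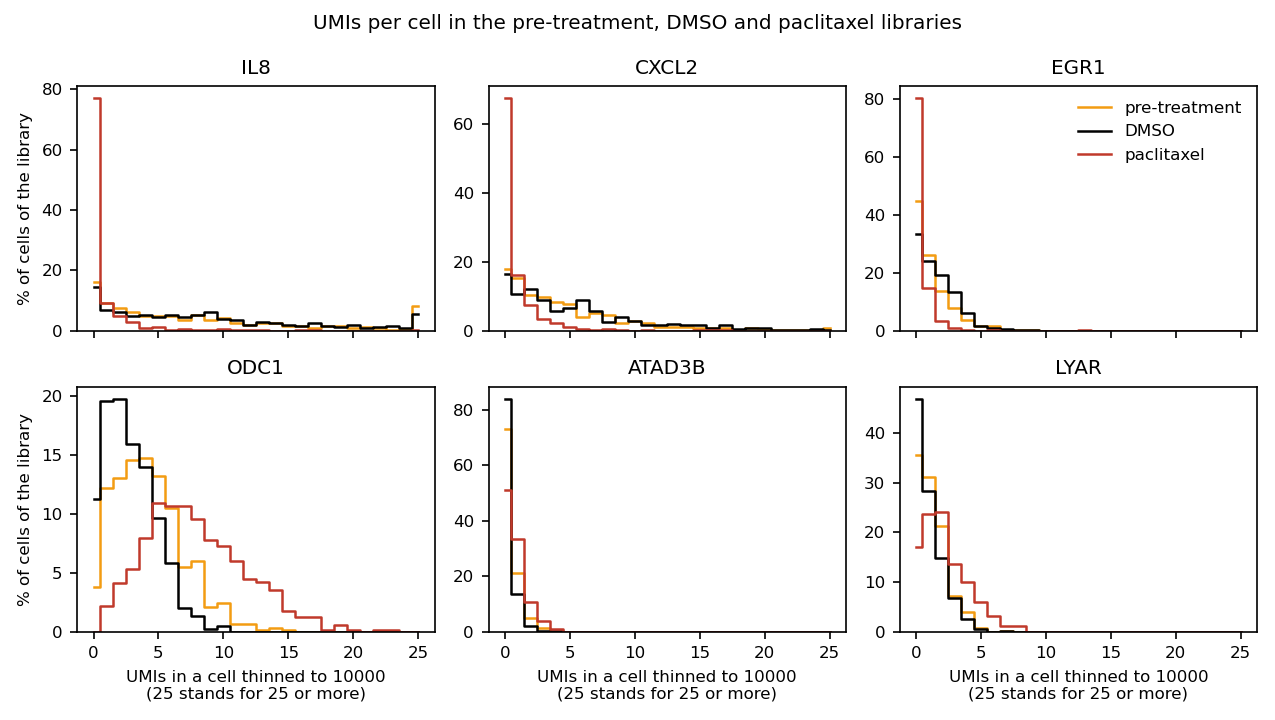
Share of cells (y, percent of the library) with a given number of UMIs (x) of 6 genes after thinning to 10000 UMIs, for pre-treatment, DMSO and paclitaxel. For IL8, CXCL2 and EGR1 most paclitaxel cells have 0 UMIs, while the whole ODC1 curve of paclitaxel is shifted to the right, from a median of 2 UMIs in DMSO to 7.

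The paclitaxel library was divided into clusters of cells to see whether the same differences held within it. The UMIs of each of 740 cells were split at random into parts of about equal size, 1 for clustering and the other for the values given here. Clusters of 415, 194 and 131 cells were found, numbered by size and left unnamed, and other settings gave from 2 to 5 clusters. Cluster 3, 17.7% of the cells, had a median of 20993 UMIs, and clusters 1 and 2 had 22438 and 23197. The NF-kB list had medians of -1.41, -1.06 and -1.70 against DMSO in clusters 1, 2 and 3. For the immediate early list they were -1.39, -1.50 and -1.39, for the cholesterol and fatty acid list -0.53, -0.50 and -0.58, and for ribosome biogenesis 0.74, 0.47 and 0.64. In all 3 clusters, therefore, these lists lay on the same side of 0.

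The clusters differed in other genes, which are described without a test because the cells were grouped by their expression. Cluster 3 had higher levels than the rest of the library of SLPI, a secreted protease inhibitor (29.1 against 3.35 CPM), FBLN1, a fibulin of the matrix (34.3 against 5.09), MMP1 (104 against 21.0), AC073236.3 and S100A2 (332 against 72.8). Its 161 MMP1 UMIs were about as many as the 157 of all other cells. Genes nearly missing from it, chosen after their values were seen, were TMEM98 (0 UMIs in cluster 3 and 282 in the rest), FGF13 (1 and 225), BEX1 (2 and 422), MEST (1 and 204) and COL1A1 (7 and 356), which encodes a chain of type I collagen. Cluster 2 was higher in SAA1 (38.5 against 12.5 CPM), an acute-phase gene, and PLAC8, and cluster 1 in IL13RA2 (49.9 against 14.5 CPM) and PTN.

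Many of the genes low in cluster 3 lie on the X chromosome. Against DMSO, the 237 measured X genes had a median log2 ratio of -0.76 in cluster 3, and 143 of them, 60.3%, were at least 1.5-fold lower. On the other chromosomes 860 of 6348 genes, 13.5%, were that much lower in this cluster, and the median was -0.02. In clusters 1 and 2 the X median was 0.08 and -0.14. When the X genes were taken in order along the chromosome and divided into 4 groups of about equal size, an analysis chosen after the values had been seen, the medians in cluster 3 were -0.73, -0.79 and -0.93 in the first 3 groups and 0.11 in the last, at the end of the long arm. The lower median was therefore spread along most of the chromosome and not seen in the last group. At least 1.5-fold lower were 60%, 69.5% and 84.7% of the genes in the first 3 groups. In the last group 16 of 59 genes were (27.1%), still above the 13.5% on the other chromosomes, and 8 were at least 1.5-fold higher. For the whole library the X median was -0.08.

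Cells with few UMIs of the genes low in cluster 3 were also present in other libraries. The 12 genes lowest in cluster 3, chosen in the UMIs used for clustering and 6 of them on X, gave at most 1 UMI in 96.2% of cluster 3 cells (91.3 to 98.7), and in 9.29% and 17.1% of cluster 1 and 2 cells, after thinning. Thinned counts were drawn from all UMIs of a cell, including those used for clustering and for choosing these genes. The shares in the 3 clusters thus follow in part from that choice and only describe it. At most 1 UMI was found in 26.8% of all paclitaxel cells (23.6 to 30.1), 11% of DMSO cells (8.26 to 14.3) and 15.6% of pre-treatment cells (12.8 to 18.8). In JQ1+paclitaxel the share was 37% and in JQ1-A 31.7%. The share of a cell's UMIs from 560 X genes, leaving out those of at least 500 CPM, had medians of 2.02%, 1.76% and 1.34% in clusters 1, 2 and 3. Its 10th percentile was 1.09% in cluster 2 and 1.10% in cluster 3, so some cells of cluster 2 had a share as low. The 10th percentile of this share was 1.21% in DMSO, 1.05% in pre-treatment and 1.21% in paclitaxel, so cells with a share as low as cluster 3 were present in the libraries without drug. In the 5 libraries with JQ1 or palbociclib the median share was 0.991 to 1.34%, near that of cluster 3 in palbociclib and below it in the libraries with JQ1. With 1 library a side, counting error alone bounds these shares.

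**Figure D5:**
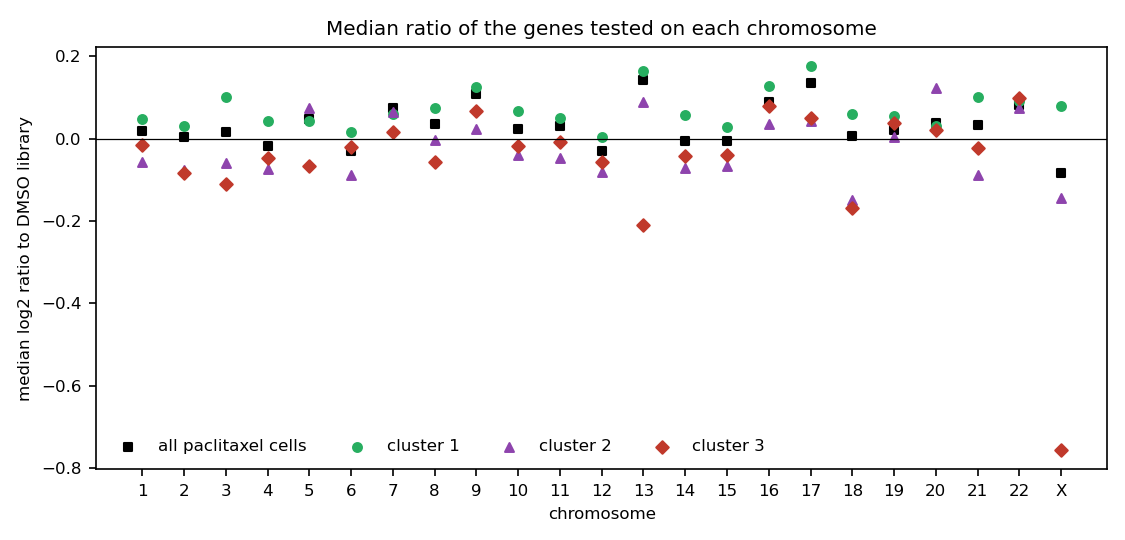
Median log2 ratio to DMSO of the measured genes of each chromosome, for all paclitaxel cells and for the cells of each cluster. Chromosome X in cluster 3, at -0.76, lies apart from the other chromosomes of that cluster, of which chromosome 13 is the next lowest at -0.21.

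Paclitaxel added to JQ1 was compared in libraries that share none with the pair above. JQ1+paclitaxel against JQ1-A had 117 of 6292 genes past 1.5-fold (1.86%), 0.731% higher and 1.13% lower. Of the 502 genes higher in paclitaxel alone, 13 were past 1.5-fold in the same direction under JQ1 and 7 in the opposite one, and of the 471 lower genes 18 and 12. In JQ1-A and JQ1+paclitaxel, respectively, EGR1 was at 195 and 193 CPM, IL6 at 70.6 and 52.8, ODC1 at 363 and 388 and LYAR at 34 and 42.2. Of the 28 genes highest or lowest in paclitaxel alone, 0 passed 1.5-fold in the same direction. In the opposite direction 2 of the 14 highest and 1 of the 14 lowest did. With 0.731% of all genes higher and 1.13% lower in this pair, a count of 0 among 28 says little about these genes. The list medians were -0.06 for NF-kB targets, -0.02 for immediate early genes, -0.04 for cholesterol and fatty acid synthesis and 0.06 for ribosome biogenesis. The NRF2 list also had a median near 0, -0.03, but 4 of its 21 genes were at least 1.5-fold lower and 0 higher. The aldo-keto reductases AKR1C2, AKR1C3 and AKR1C1 had log2 ratios of -1.77, -0.68 and -0.98 in this pair, the same direction as without JQ1. Across 5970 genes measured in both pairs the log2 ratios had a Pearson correlation of 0.11 and a Spearman correlation of 0.109, given as a description because genes are not independent.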

How the data were processed

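UMI counts of 18955 genes in 5738 cells of 8 libraries were used, together with a table that assigns each cell to its library. Per the labels and the study's methods, the authors aligned reads to hg19 and counted them with Cell Ranger. In Seurat they kept genes seen in at least 3 cells, and cells in which 2000 or more genes were found and 1 to 15% of UMIs were mitochondrial. The deposited counts are not normalized and hold cells outside that filter, which left 740 of 752 paclitaxel and 452 of 459 DMSO cells. The per-cell totals of both deposited tables differ by at most 38 UMIs.

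Here each library's counts were added up over its cells, whether or not they pass that filter, and divided by the total (CPM), genes with a mean under 10 CPM in the pair were left out, and a count of 0 entered at 3 counts. Intervals for ratios (conditional binomial) and shares are exact (Clopper-Pearson) at 95%, and cover counting error only, as do the totals of 18176477 and 10621159 UMIs. No p-value was computed, since the cells of a library are not replicates. The computation of ratios and intervals was tested on simulated counts. Seurat 5.3.0 in R 4.3.3 clustered the paclitaxel cells (2000 variable genes, 20 components, resolution 0.4, with UMIs, mitochondrial share and the difference of S and G2/M scores regressed out), with no doublet caller run. The 5% of cells with most UMIs were left out as an alternative. TMM factors came from edgeR 4.0.16, with no edgeR test. Python 3.11.15 with numpy 2.4.6 and scipy 1.17.1 did the rest.

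Of the 6708 genes, 6585 were given 1 position in GENCODE genes mapped to GRCh37, using older symbols. The named genes were the 14 highest and 14 lowest by the interval bound nearest to 1, up to 3 at each end of each list, a chosen set of tubulin, transport, cytokine, cell cycle, apoptosis and mesenchymal genes, and the 5 highest of each cluster. Further list members are quoted as examples, and some members are not reported here. The members, the 34 gene lists and these rules were chosen with earlier results of these data known, and 2 more lists were written after the ranking had been seen. Other scalings, filters, cell sets and the pre-treatment library as reference were tried.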

Additional observations from a re-analysis of the deposited data

Results flagged for a closer look

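For 4 named genes, the ratio of JQ1+paclitaxel to JQ1-A and that of paclitaxel to DMSO were both at least 1.5-fold and in opposite directions. With 1 library in each arm the difference was not tested. MMP1 had a log2 ratio of -1.32 with JQ1, from 13 CPM in JQ1-A to 5.23 in JQ1+paclitaxel, and 1.86 without. Its level also differed between JQ1-A and JQ1-B, of the same drug and dose, at 13 and 31 CPM (log2 ratio -1.25). SPHK1 had -0.84, from 5.13 to 2.86 CPM, and 1.49 without. In the pair with JQ1 both MMP1 and SPHK1 averaged under 10 CPM, the limit used for paclitaxel and DMSO. SLC7A5, an amino acid transporter, had -0.86 and 1.09. FOS had 0.80, from 37.4 to 65.1 CPM, and -2.61 without, and it varied more than 2-fold between the drug-free libraries, at 26.4 CPM in pre-treatment and 60.4 in DMSO.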

How the results depend on the processing

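No paired analysis was possible because the paclitaxel and DMSO groups are 1 library each. The 502 higher and 471 lower genes (68 and 121 past 2-fold) were recomputed. With a mean of at least 5 CPM, 770 were lower and 217 past 2-fold, and with at least 50 CPM the counts were 188 and 103 (19 and 34 past 2-fold). With no filter on low values they were 2233 and 4814 (610 and 2687). With pre-treatment in place of DMSO 287 genes were higher (15 past 2-fold), and with a pool of both 281 (15), an alternative chosen after seeing the data, as were the clusters. Cells of cluster 2 gave 745 lower genes (221 past 2-fold), and those of cluster 3 gave 921 lower, with 139 higher and 338 lower past 2-fold. Resolution 0.8 gave 5 clusters, no regression 4, and resolution 0.2 and all UMIs 2 each, with adjusted Rand indices of 0.287 to 0.494 against the 3 clusters described, so the division of the cells depends on the setting. Among named genes past 1.5-fold against DMSO, the direction turned against pre-treatment for TFPI2 (-0.53), MAD1L1 (-0.14), EGFR (-0.0085), CDH11 (-0.10), STC2 (-0.0091) and S100A2 (-0.34). Of the same genes, it turned in cluster 3 for SPHK1 (-0.075), ID2 (-0.42), ANGPTL4 (-0.32), UNG (-0.094) and RANGAP1 (-0.027). Counted at any ratio, at least 36 of 225 named genes changed sign against pre-treatment and at least 22 of 225 in cluster 3. The drug transport median, of 1 gene, became 0.12 over 6 genes at 5 CPM and 0.19 over 14 unfiltered. The causes were not tested, apart from the filters, which change the genes counted. Scaling by TMM or by the median gene, a pseudocount of 1 CPM, the study's cell filter, thinning, equal phase weights and leaving out the 5% of cells with most UMIs turned no named gene past 1.5-fold. Depth limits each ratio by its counting interval, and the variation between libraries, which 1 library a side cannot measure, comes on top of it.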
